A study of Mus musculus with 14 samples.

Results

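The genes described here are 31 inflammatory cytokines, chemokines and chemokine receptors in primary microglia of TIMP2 KO and WT mice. They were chosen by name. They comprise 8 cytokines, 11 CC chemokines, 7 CXC chemokines and 5 receptors, and all 31 were found among the 49315 genes of the count table through the GRCm38 annotation. Messenger RNA was sequenced from 14 cultures, 7 TIMP2 KO and 7 WT, and each culture held microglia from the pooled forebrains of 5 pups of both sexes at postnatal day 6 to 7. All mice were on the C57BL/6 background. In the KO mice the gene of TIMP2, an inhibitor of metalloproteinases, was deleted in every cell of the body and not in microglia alone. The cells had been selected with CD11b beads and kept in serum-containing medium on coated plastic before collection, and no inflammatory stimulus is named for these cultures. The comparison asks whether microglia without TIMP2 carry more or less messenger RNA of these secreted signals and of the receptors that read them.

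Cytokines and chemokines are small secreted proteins through which microglia, the resident macrophages of the brain, alert neighbouring cells and draw leukocytes into tissue. Most of their genes are kept low in resting cells and rise within hours when factors such as NF-kB and AP-1 are activated. Chemokines are named by the spacing of their first cysteines (CC or CXC) and act on G protein-coupled receptors, several of which bind more than 1 ligand.

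The libraries held between 38875344 and 48070236 counted reads. Timp2 itself was lower in every KO library than in every WT library, at 119.6 to 129 CPM (reads of the gene scaled to the library total) in KO and 398 to 495 CPM in WT (log2 fold change -1.92, SE 0.046), which matched each label, although counted reads remained in KO. All 12 microglial markers passed the filter on low counts, with a summed level of 11062 to 13994 TPM, which also scales the reads to the length of the gene, over the libraries, against 19.3 to 152 TPM for the 12 astrocyte markers and 12.7 to 30.6 TPM for the 12 neuronal markers. Of the 13 marker and pathway lists, the astrocyte markers had the median log2 fold change farthest from 0, and the neutrophil markers, given with Cxcr2, had the smallest p for the summed level. All 11 astrocyte markers that could be tested had lower fitted levels in KO, the median of their log2 fold changes was -0.69, and 0 had an adjusted p under 0.05. In bulk cultures, fewer cells of a type and less RNA per cell cannot be told apart. The labels say that the pools were separate, and they name no isolation or sequencing batch.

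Of the 31 genes, 24 were expressed at a mean of at least 1 CPM, 15 at a mean of at least 5 CPM and 5 at a mean of at least 100 CPM. Counts were present in all 14 libraries for 29 of them. The 26 genes with enough counts were tested between genotypes, and the other 5 (Il6, Il12b, Ccl20, Ccl22 and Cxcl9) had mean counts of 4.29 to 9.00 reads per library and were not. In the order of their levels per length, Ccl3, Ccl9, Ccl4 and Ccl6 stood first, Cxcl16, Cxcr4 and Cxcl14 followed, and Tnf and Il18 were the most abundant cytokines. The 5 genes with the highest means, Ccl3, Ccl9, Ccl4, Ccl6 and Cxcl16, made up 75.1 to 88.9% of the summed TPM of all 31 in a library.

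**Figure D1:**
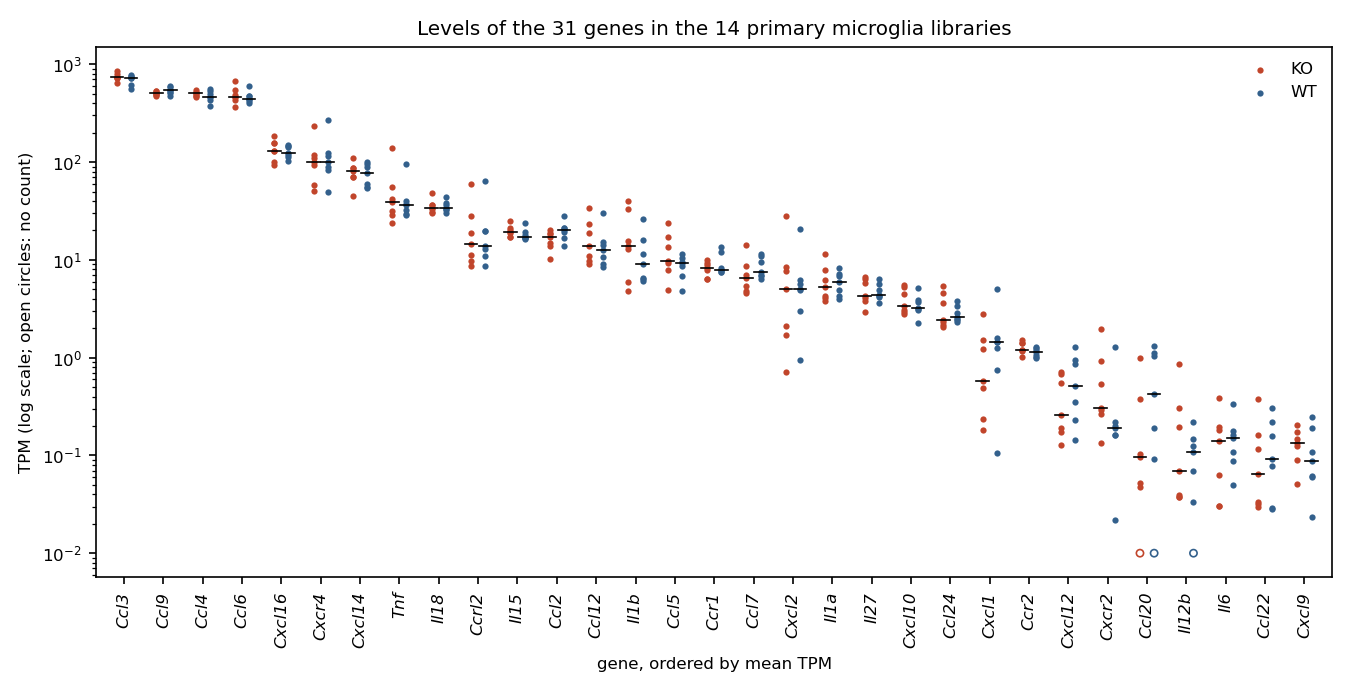
Level of each of the 31 genes in each library, in TPM on a log scale, with KO libraries in red, WT libraries in blue, black bars at the medians of 7 libraries and open circles at the lower edge for libraries with no count. The means run from 724 TPM for Ccl3 to 0.122 TPM for Cxcl9, and KO and WT values overlap for every gene.

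Short stretches before the start sites of 6 of these genes are shown, chosen after their values were seen. By the SD of log2 CPM within genotypes, Cxcl1 and Cxcl2 had the largest spread of the tested genes and Ccl9 had the smallest. The other 3 were taken from the genes that peaked in the cultures numbered 4. Each is 200 bases long, ends at the base before the start site, reads 5′ to 3′ on the strand of the gene and is taken from RefSeq on GRCm38.p6. Capitals mark matches to the NF-kB consensus on either strand, and overlapping matches run together. Cxcl1 (chr5:90891045-90891244, plus strand), Cxcl2 (chr5:90903699-90903898, plus strand), Cxcl10 (chr5:92348890-92349089, minus strand) and Ccrl2 (chr9:111057519-111057718, minus strand) all peaked in those cultures and have at least 1 match. Cxcr4 (chr1:128592300-128592499, minus strand) peaked in the same cultures and has no match. Ccl9 (chr11:83578637-83578836, minus strand) was the steadiest of the tested genes and has 1.
Cxcl1: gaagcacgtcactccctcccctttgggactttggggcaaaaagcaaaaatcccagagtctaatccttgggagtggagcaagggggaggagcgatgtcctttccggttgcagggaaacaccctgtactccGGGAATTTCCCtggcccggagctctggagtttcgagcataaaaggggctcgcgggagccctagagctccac
Cxcl2: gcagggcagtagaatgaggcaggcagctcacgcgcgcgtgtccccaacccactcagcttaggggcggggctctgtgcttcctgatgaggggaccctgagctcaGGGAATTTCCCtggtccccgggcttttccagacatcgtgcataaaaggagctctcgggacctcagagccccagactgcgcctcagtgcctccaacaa
Cxcl10: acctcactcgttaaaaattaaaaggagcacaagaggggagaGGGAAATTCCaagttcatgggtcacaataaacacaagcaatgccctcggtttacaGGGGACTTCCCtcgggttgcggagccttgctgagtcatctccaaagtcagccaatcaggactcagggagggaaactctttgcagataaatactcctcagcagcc
Ccrl2: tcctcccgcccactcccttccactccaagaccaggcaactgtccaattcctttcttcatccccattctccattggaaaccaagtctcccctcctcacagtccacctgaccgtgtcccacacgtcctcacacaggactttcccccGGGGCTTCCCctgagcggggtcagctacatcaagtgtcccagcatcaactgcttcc
Cxcr4: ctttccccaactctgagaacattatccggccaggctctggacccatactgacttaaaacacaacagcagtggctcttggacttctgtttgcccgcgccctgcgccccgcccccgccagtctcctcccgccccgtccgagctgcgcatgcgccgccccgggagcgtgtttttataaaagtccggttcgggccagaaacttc
Ccl9: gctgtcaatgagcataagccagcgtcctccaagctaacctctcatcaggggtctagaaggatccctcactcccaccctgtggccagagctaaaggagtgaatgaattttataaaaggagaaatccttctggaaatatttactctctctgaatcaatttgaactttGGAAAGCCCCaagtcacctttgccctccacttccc

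Windows of 250 bases before to 50 after the start site were held for 23 of the 31 genes. The NF-kB consensus occurred in the windows of 8 of them (Ccl20, Ccl9, Ccr1, Ccrl2, Cxcl1, Cxcl10, Cxcl2 and Il6), against 8.46% of all 32851 windows and 10.6% of the 14246 windows of tested genes. Ccrl2 had 3 windows, of which 1 held a match. The AP-1 letters TGANTCA, searched on both strands, were in the windows of 5 genes (Ccl9, Cxcl10, Cxcl9, Il1a and Il6) against 7.81% of all windows. The interferon response letters GAAANNGAA, also on both strands, were in 5 (Ccl3, Ccr2, Cxcl10, Cxcl14 and Cxcl9) against 8.56%. The TATA box letters TATAAA, on the strand of the gene, were in 7 (Ccl12, Ccl9, Cxcl9, Cxcr4, Il1a, Il1b and Tnf) against 8.32%. These are matches of letters in a short window and do not show where a factor binds. Tnf and Il1b, which peaked in the same cultures as Cxcl1 and Cxcl2, had no NF-kB match in the window.

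No gene of the group passed the test between genotypes. With edgeR, 0 of 26 had an adjusted p under 0.05, where 3 of all 15700 tested genes did (0.0191%), and 0 of 26 had an unadjusted p under 0.05, where 529 of all tested genes did (3.37%). DESeq2 also called 0 of the group (0.0318% of all genes it tested), with 0 at an unadjusted p under 0.05 (2.04%). The smallest unadjusted p was 0.0893, for Ccl2, and the adjusted p from edgeR ran from 0.943 to 0.990. The fitted levels were higher in KO for 19 genes and lower for 7, and the median of the log2 fold changes was 0.09, whereas 50.8% of all tested genes were higher and their median was 0.0016. In the libraries themselves KO and WT overlapped for all 31 genes, and 0.0828% of all tested genes had groups that did not overlap.

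The size of a genotype difference that remained possible varied widely with the gene. For 18 of the 26 the 95% interval of the fold lay within 2-fold in either direction, and for 11 of these it lay within 1.5-fold. These 11 were the abundant CC chemokines Ccl3, Ccl4, Ccl6 and Ccl9 with Il15, Il18, Il27, Cxcl14, Cxcl16, Ccr1 and Ccr2. The intervals of the other 8, Il1b, Tnf, Ccl5, Cxcl1, Cxcl2, Cxcl12, Ccrl2 and Cxcr2, reached beyond 2-fold. These intervals come from the fit with genotype as the only term.

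**Figure D2:**
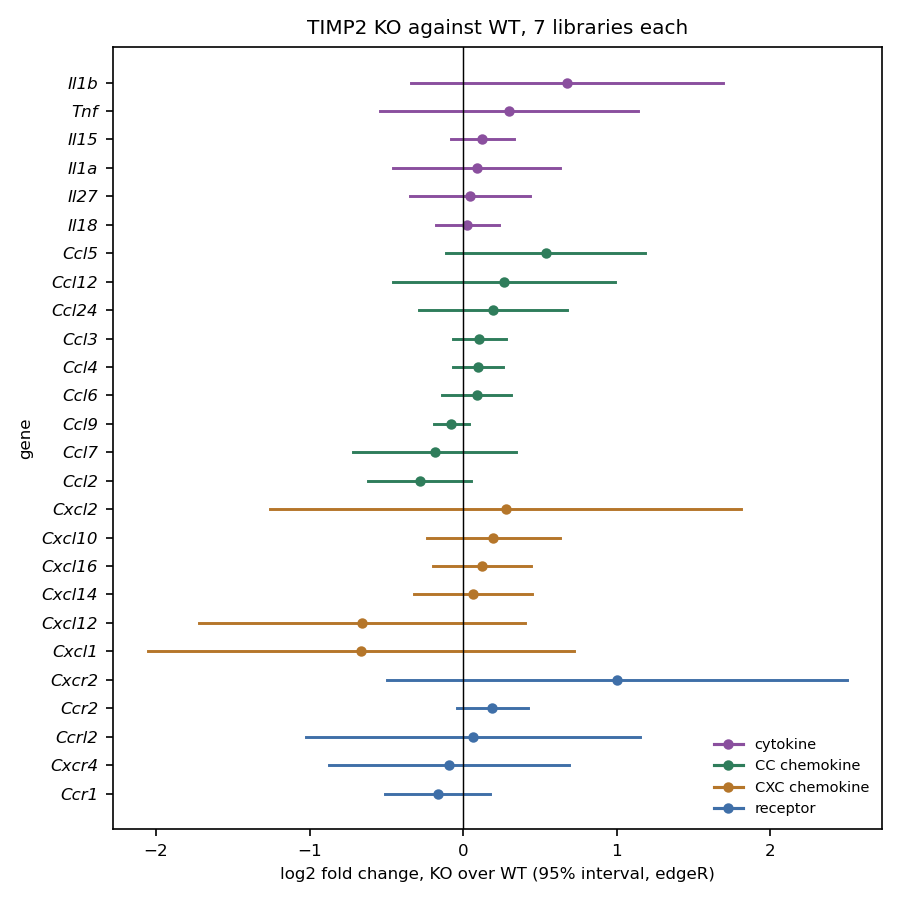
Log2 fold change of KO over WT for the 26 tested genes, grouped by role, with 95% intervals from edgeR (7 libraries per genotype). Every interval includes 0, and the estimates run from -0.67 for Cxcl1 to 1.00 for Cxcr2.

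Among the cytokines, all 6 tested genes had estimates above 0, from 0.03 to 0.67 on the log2 scale, and 0 of them passed. Il1b, the precursor of the fever-inducing cytokine IL-1 beta (chr2:129364570-129371139, minus strand), had the largest. Its level was 3.06 CPM in the lowest KO library, 9.06 at the median and 26.4 in the highest. In WT the lowest, median and highest levels of Il1b were 3.83, 5.83 and 16.5 CPM. The 2 highest KO cultures were replicates 3 and 4, the highest WT culture was replicate 4, and the remaining cultures of both genotypes shared the range below 11 CPM. The log2 fold change was 0.67 (SE 0.47, edgeR adjusted p = 0.943). It was 0.35 without KO replicate 4 and 0.84 without KO replicate 1, and its highest value over the alternatives run was 0.996.

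Tnf, which encodes a cytokine that acts on receptors of nearly all cells (chr17:35199381-35202007, minus strand), was the most abundant cytokine. Its levels in KO were 13.0 CPM at the lowest, 22.1 at the median and 80.1 at the highest. The WT levels of Tnf were 15.7, 20.9 and 51.6 CPM. Replicate 4 was far above the others in both genotypes, and the medians lay close together. Tnf had a log2 fold change of 0.30 (SE 0.39, edgeR adjusted p = 0.945). This was 0.11 without both libraries numbered 4, an alternative chosen after seeing the data. It was -0.20 without KO replicate 4 alone and 0.42 without KO replicate 5.

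Il18 (chr9:50554827-50581840, plus strand) and Il15 (chr8:82331632-82403222, minus strand) were the steady cytokines. Il18, a member of the IL-1 family that is stored as a precursor, ran from 10.8 to 16.4 CPM in KO with a median of 12.4, and from 10.7 to 15.1 CPM in WT with a median of 11.8. Il15, a growth factor of natural killer and memory T cells, ran from 12.7 to 18.6 CPM in KO with a median of 14.8, and from 12.5 to 18.1 CPM in WT with a median of 13.0. Replicate 5 was the highest culture for both genes in both genotypes. The other cultures lay between 10.7 and 13.4 CPM for Il18, with KO and WT mixed, whereas for Il15 KO replicates 3, 4 and 7 lay above every WT culture but replicate 5. Log2 fold changes were 0.03 (SE 0.096) for Il18 and 0.12 (SE 0.097) for Il15, with edgeR adjusted p of 0.980 and 0.943. That of Il15 was 0.072 without KO replicate 5 and 0.0020 with the astrocyte markers as a covariate.

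Il6, a cytokine of the acute phase, was barely counted. Its mean count was 5.43 reads per library, and its levels were 0.025 to 0.331 CPM in KO and 0.042 to 0.277 CPM in WT, with medians of 0.117 and 0.120. The genotypes overlapped over nearly their whole range. Il12b, the shared chain of IL-12 and IL-23, had a mean of 4.71 reads and 0 counts in WT replicate 5, where 3 counts would have been 0.0658 CPM. Il1a and Il27 were low but measurable, at means of 4.05 and 1.67 CPM, with log2 fold changes of 0.09 and 0.04. Il1a shares 222 exon bases with Gm14023 on the opposite strand, which had a mean of 23.4 counts against 175 for Il1a. Reads of Il27 could not be separated from those of Apobr, which lies on the opposite strand, shares 103 exon bases with it and had a mean of 3723 counts against 72.1 for Il27, since the strand setting of the counting was not given in the sources used here.

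The CC chemokines held both the most abundant and the steadiest genes of the group. Ccl3 (chr11:83647844-83649355, minus strand) and Ccl4 (chr11:83662584-83664683, plus strand) encode the macrophage inflammatory proteins MIP-1 alpha and MIP-1 beta. Ccl6 (chr11:83587882-83593087, minus strand) and Ccl9 (chr11:83572919-83578636, minus strand) encode rodent chemokines that act on Ccr1. All 4 genes lie within the same cluster on chromosome 11, and among all tested genes they ranked 132 (Ccl3), 204 (Ccl9), 228 (Ccl4) and 234 (Ccl6) by mean TPM.

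Ccl3 was at 168 CPM in the lowest KO library, 194 at the median and 228 in the highest, and at 142, 188 and 209 CPM in WT. Ccl4 was at 105, 112 and 120.6 CPM in KO and at 82.3, 103 and 124 CPM in WT. The lowest WT library was replicate 4 for both genes, which was the highest KO library for Ccl3. Estimated log2 fold changes were 0.11 (SE 0.081) for Ccl3 and 0.10 (SE 0.075) for Ccl4, both with an edgeR adjusted p of 0.943. Without both libraries numbered 4 they were 0.01 and 0.03.

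Ccl9 was at 474 CPM in the lowest KO library, 532 at the median and 565 in the highest, against 505, 555 and 629 CPM in WT. The highest of the 14 libraries was 1.33-fold above the lowest, the narrowest range of the group. Its log2 fold change of -0.08 (SE 0.053, 95% interval -0.19 to 0.035, edgeR adjusted p = 0.943) lay within the spread between cultures. Ccl6 was at 231, 288 and 400.2 CPM in KO and at 245, 275 and 356 CPM in WT. Replicate 5 was the highest and replicate 3 the lowest in both genotypes, and the log2 fold change was 0.09 (SE 0.105, edgeR adjusted p = 0.943). Without KO replicate 5 it was 0.0059, and without KO replicate 3 it was 0.14.

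Ccl2 (chr11:82035571-82037453, plus strand), the monocyte-attracting ligand of Ccr2, had the smallest unadjusted p of the group. In KO its lowest, median and highest levels were 4.11, 6.82 and 8.00 CPM, and in WT 5.42, 7.66 and 10.5 CPM. The lowest culture of all was KO replicate 4 and the highest was WT replicate 5, and the ranges overlapped between 5.42 and 8.00 CPM. The log2 fold change was -0.28 (SE 0.16, edgeR adjusted p = 0.943). Its neighbours Ccl7 and Ccl12, which also encode monocyte-attracting ligands, had log2 fold changes in opposite directions, -0.19 (SE 0.25) and 0.27 (SE 0.34). Without KO replicate 3 they were -0.45 and -0.0039, so that the opposite signs rest on that library.

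Ccl5 (chr11:83525778-83530518, minus strand), a ligand of Ccr1 better known as RANTES, was at 1.56 CPM in the lowest KO library, 3.27 at the median and 8.15 in the highest. Its levels in WT were 1.53, 3.02 and 3.74 CPM. KO replicates 3, 4 and 6 lay above every WT culture, and the other KO cultures lay within the WT range. The log2 fold change was 0.54 (SE 0.30, edgeR adjusted p = 0.943), and it was 0.28 without KO replicate 3 and 0.68 without KO replicate 1. Markers of lymphocytes, cells well known to make Ccl5, had a summed level of 1.07 to 4.6 TPM over 12 genes, of which Cd4 made up a mean of 1.42 TPM and 1 gene was at 0 in all libraries. Cd3e, Cd3d and Trac were at means of 0.01, 0.02 and 0.02 TPM. Only Cd4 of these markers was tested, so the correlation with Ccl5 used Cd4 alone and does not stand for the list. Within genotypes r between Ccl5 and Cd4 was -0.10 (permutation p adjusted over 16 relations = 0.774). It was 0.89 without KO replicate 1 and WT replicate 1, the libraries with the highest summed marker levels. The part of lymphocytes in the level of Ccl5 was not tested.

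Ccl20, the ligand of Ccr6, was at the edge of detection. The counts averaged 9.00 reads per library. Levels ran from 0 to 0.482 CPM in KO with a median of 0.047, and from 0 to 0.645 CPM in WT with a median of 0.212. Replicate 6 of each genotype had no count, where 3 counts would have been 0.0699 CPM in KO and 0.0696 CPM in WT, and replicate 2 was the highest in both. WT replicates 2, 3 and 4, at 0.645, 0.495 and 0.527 CPM, lay above every KO culture, and the other WT cultures lay within the KO range. Ccl22 had a mean of 4.29 reads, and Ccl24, which attracts eosinophils, had a mean of 1.33 CPM and a log2 fold change of 0.20 (SE 0.23). The log2 fold change of Ccl24 was 0.035 without KO replicate 5.

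Among the CXC chemokines, 4 of the 6 tested genes had estimates above 0 and 2 below, and 0 passed. Cxcl16 (chr11:70453983-70459984, minus strand), made as a membrane-bound ligand of Cxcr6, was the most abundant. It was at 94.4 CPM in the lowest KO library, 135 at the median and 198 in the highest, and at 101, 126 and 148 CPM in WT. The KO cultures spread to both sides of the WT cultures, and the log2 fold change was 0.12 (SE 0.15, edgeR adjusted p = 0.944). Without KO replicate 3 it was 0.022, and without KO replicate 1 it was 0.20. Cxcl16 shares 552 exon bases with Zmynd15 on the opposite strand, which had a mean of 928 counts against 5899 for Cxcl16.

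Cxcl1 (chr5:90891241-90893115, plus strand) and Cxcl2 (chr5:90903871-90905938, plus strand), neighbouring genes for neutrophil-attracting ligands of Cxcr2, had the largest SD within genotypes on the log2 scale among the tested genes. Cxcl2 was at 0.494 CPM in the lowest KO library, 3.60 at the median and 20.5 in the highest, and at 0.650, 3.58 and 14.1 CPM in WT. The highest library was 41.6-fold above the lowest. Replicate 4 was highest in both genotypes, and the medians of the genotypes nearly coincided, with a log2 fold change of 0.28 (SE 0.72, edgeR adjusted p = 0.972) that was -0.58 without KO replicate 4 and 0.88 without WT replicate 4.

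Cxcl1 was at 0.117, 0.378 and 1.85 CPM in KO and at 0.066, 0.923 and 3.09 CPM in WT, with replicate 4 again highest in both. Its log2 fold change was -0.67 (SE 0.65, edgeR adjusted p = 0.943). This was -1.19 without KO replicate 4, -0.11 without WT replicate 4 and -0.014 with the astrocyte markers as a covariate. After the genotype means were removed, Cxcl1 and Cxcl2 moved together over the 14 libraries (r = 0.75, rho = 0.81, permutation p adjusted over 16 relations = 0.0178 and 0.0218), and r was 0.89 without the 2 libraries farthest from the median of Cxcl1. The stretches printed above show the same 11 letters in capitals before both genes, and a link of these letters to the shared movement was not tested.

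Cxcl12 (chr6:117168535-117181367, plus strand), the ligand of Cxcr4 that stromal and vascular cells are known to make, was at 0.346, 0.722 and 1.94 CPM in KO and at 0.395, 1.42 and 3.50 CPM in WT. Replicate 5 was lowest in both genotypes. The log2 fold change was -0.66 (SE 0.50, edgeR adjusted p = 0.943), and it was -0.27 without both libraries numbered 4. With the astrocyte markers as a covariate it was 0.22, and its SE fell to 0.12. Within genotypes Cxcl12 rose and fell with the mean of the mural and fibroblast markers (r = 0.77, rho = 0.78, permutation p adjusted over 16 relations = 0.0178 and 0.0218, and r = 0.62 without the 2 libraries farthest out). Of those 12 markers 10 were tested, 9 were lower in KO and 1 higher, and the median of their log2 fold changes was -0.35. Their summed level was 4.85 to 22.4 TPM in KO and 5.67 to 40.7 TPM in WT. Acta2 was the most abundant at a mean of 7.04 TPM, and none was at 0 in all libraries. The part of the mural and fibroblast markers in the level of Cxcl12 was not tested beyond this correlation. The link was not particular to them. Deviations of the mean of the astrocyte markers from the genotype mean had the same sign as those of Cxcl12 in every library. In KO replicate 5 they were -1.27 for the astrocyte markers and -1.29 for Cxcl12, and in WT replicate 4 they were 1.21 and 1.36. This relation was not among the 16 and was not tested.

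Cxcl14 (chr13:56288643-56296551, minus strand), a chemokine without a settled receptor, was at 28.9, 48.7 and 69.9 CPM in KO and at 34.7, 48.3 and 60.9 CPM in WT. The KO cultures covered the whole WT range and more on both sides. Its log2 fold change was 0.06 (SE 0.18, edgeR adjusted p = 0.974). Cxcl14 moved with the astrocyte markers within genotypes (r = 0.68, permutation p adjusted over 16 relations = 0.0365, and r = 0.61 without the 2 libraries farthest out), while its rho of 0.70 did not pass the same threshold (adjusted p = 0.0508). With the neuronal markers r was 0.04. With the astrocyte markers as a covariate the log2 fold change of Cxcl14 was 0.26 (edgeR adjusted p = 0.999). The summed astrocyte level was 19.3 to 77.8 TPM in KO and 21.9 to 152 TPM in WT, with Gfap the most abundant at a mean of 15.6 TPM and none at 0 in all libraries. Their part in the level of Cxcl14 was not tested beyond these fits.

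Cxcl10, an interferon-induced ligand of Cxcr3, was low at a mean of 2.85 CPM with a log2 fold change of 0.19 (SE 0.20). Without KO replicate 4 this was 0.088. Its neighbour Cxcl9 had a mean of 5.36 reads and was not tested. Cxcl10 shares 133 exon bases with Art3, which had a mean of 7.14 counts.

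**Figure D3:**
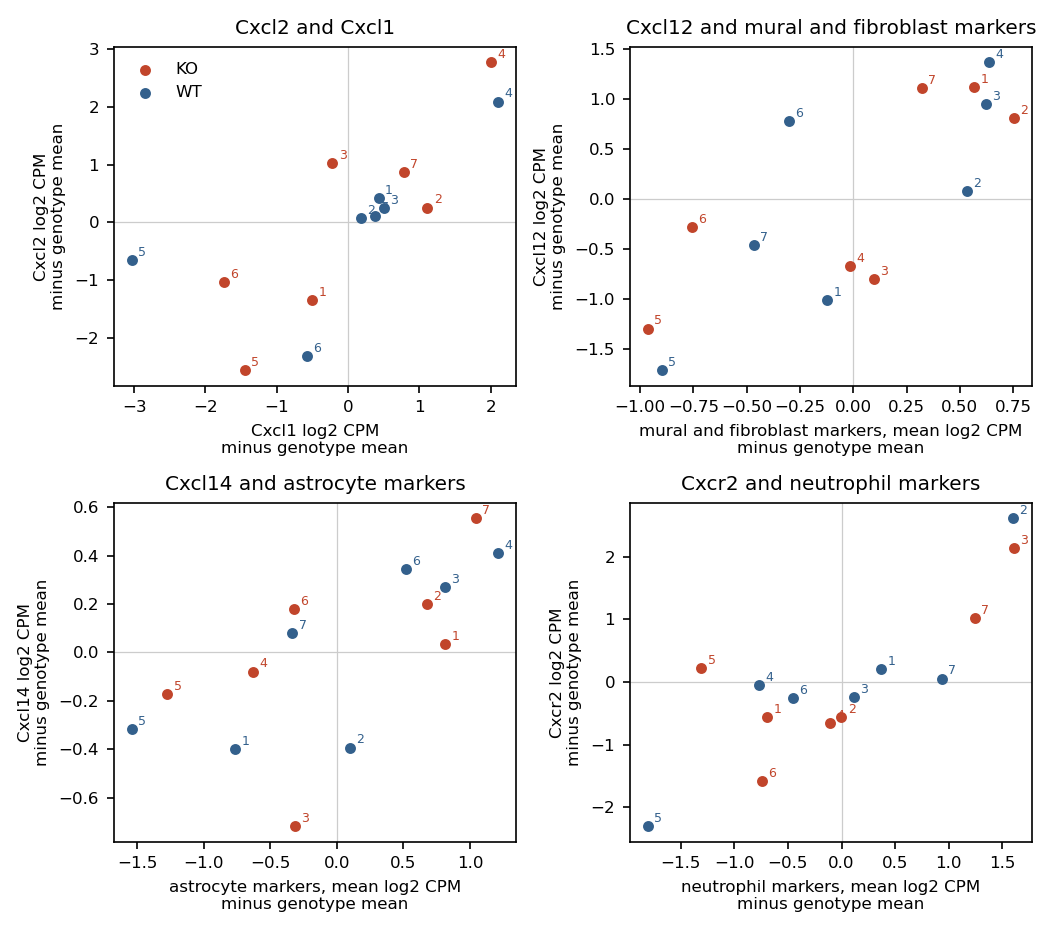
Log2 CPM minus the genotype mean in each library, with replicate numbers beside the points, for Cxcl2 against Cxcl1 and for Cxcl12, Cxcl14 and Cxcr2 against the mean of a marker list, with KO in red and WT in blue. The values of r over the 14 libraries are 0.75, 0.77, 0.68 and 0.83 in that order.

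Among the receptors, Cxcr4 was the most abundant (chr1:128588199-128592293, minus strand). It was at 30.6 CPM in the lowest KO library, 59.5 at the median and 149 in the highest, and at 29.9, 62.0 and 162 CPM in WT. Replicate 4 was the highest and replicate 5 the lowest culture in both genotypes, and KO and WT covered almost the same range. The log2 fold change was -0.09 (SE 0.37, edgeR adjusted p = 0.982), but it was -0.41 without KO replicate 4 and 0.24 without WT replicate 4.

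Ccrl2, an atypical receptor that binds chemerin without signalling (chr9:111054486-111057519, minus strand), was at 7.53, 13.2 and 54.7 CPM in KO and at 7.42, 12.3 and 55.2 CPM in WT. The extremes were replicates 5 and 4 in both genotypes, and the values nearly coincided, with a log2 fold change of 0.06 (SE 0.51, edgeR adjusted p = 0.990). It was -0.46 without KO replicate 4 and 0.63 without WT replicate 4.

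Ccr2, the receptor of Ccl2 that marks inflammatory monocytes (chr9:124101950-124113557, plus strand), was at 2.37, 2.75 and 3.57 CPM in KO and at 2.23, 2.60 and 2.94 CPM in WT. KO replicates 2, 3 and 6 lay above every WT culture, and the rest overlapped. The log2 fold change was 0.19 (SE 0.109, edgeR adjusted p = 0.943). Of the 12 markers of monocytes and border macrophages 7 were tested, 5 higher and 2 lower in KO, with a summed level of 326 to 492 TPM in KO and 305 to 559 TPM in WT. Their most abundant gene was Mrc1, at a mean of 202 TPM, and the monocyte gene Ly6c2 was at 0.09 TPM. Within genotypes r between Ccr2 and this list was 0.18 (permutation p adjusted over 16 relations = 0.652).

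Ccr1, which binds Ccl3, Ccl5, Ccl6 and Ccl9, had a mean of 8.35 CPM and a log2 fold change of -0.17 (SE 0.16). Over the alternatives run, the log2 fold change of Ccr1 ranged from -0.24 to -0.034. Cxcr2, the receptor of Cxcl1 and Cxcl2 that is abundant on neutrophils (chr1:74153989-74161246, plus strand), had the largest estimate of the group, 1.00 (SE 0.70, 95% interval -0.49 to 2.5, edgeR adjusted p = 0.943). It was at 0.140, 0.307 and 2.13 CPM in KO and at 0.022, 0.192 and 1.33 CPM in WT. Single cultures stood out, KO replicate 3 and WT replicate 2, and the others apart from KO replicate 7 were below 0.6 CPM. The estimate was 0.34 without KO replicate 3 and 2.01 without WT replicate 2, and neither passed the adjusted threshold.

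The neutrophil markers moved with Cxcr2. Within genotypes r was 0.83 and rho 0.68 (permutation p adjusted over 16 relations = 0.0178 and 0.0508), and r was 0.70 without the 2 libraries farthest out, KO replicate 3 and WT replicate 5. Of the 12 markers 7 were tested, and all 7 had higher fitted levels in KO (median log2 fold change 0.44). Only Csf3r had an unadjusted p under 0.05 (log2 fold change 0.15, edgeR adjusted p = 0.943). The summed level was 225 to 310.5 TPM in KO and 192 to 249.96 TPM in WT (exact permutation test, two-sided, p = 0.0198, adjusted over the 13 lists 0.258), of which Csf3r, a receptor that microglia also carry, made up a mean of 205 TPM. Next came S100a9 and S100a8, at means of 14.0 and 6.91 TPM, and Mmp9, Mmp8, Ngp and Retnlg, at 3.17, 2.17, 1.62 and 1.19 TPM. Camp and Ltf were both at 0.56 TPM, the surface marker Ly6g was at 0.03 TPM, and the precursor genes Elane and Mpo were at 0.02 and 0.01 TPM. Their part in the level of Cxcr2 was not tested beyond this correlation.

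The spread between cultures of the same genotype was wide for most of these genes. The SD of log2 CPM within genotypes had a median of 0.41 for the 26 tested genes against 0.15 for all tested genes, and 25 of the 26 lay above that overall median. It ran from 0.11 for Ccl9 to 1.56 for Cxcl2. Over the 14 libraries the highest level was more than 5-fold above the lowest for 9 of the 26, namely Il1b, Tnf, Ccl5, Cxcl1, Cxcl2, Cxcl12, Ccrl2, Cxcr2 and Cxcr4, and less than 2-fold above it for 7, namely Il15, Il18, Ccl3, Ccl4, Ccl6, Ccl9 and Ccr2. Counting error adds to the spread of the genes with few reads, such as Cxcr2 with a mean of 21.3 and Cxcl1 with a mean of 36.8, and it is small for Cxcl2, Tnf, Ccrl2 and Cxcr4 with means of 218 to 3027 reads.

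The high values were gathered in a few cultures. KO replicate 4 was the highest KO library for 10 of the 26 genes, and WT replicate 4 was the highest WT library for 10. In 7 genes, Il1b, Tnf, Cxcl1, Cxcl2, Cxcl10, Ccrl2 and Cxcr4, replicate 4 was the highest in both genotypes, as it was for 2.68% of all tested genes. Replicate 5 was the highest in both genotypes for 5 others, Il15, Il18, Il27, Ccl6 and Ccl24 (12.1% of all tested genes), and it was also the lowest KO library for 8 genes. KO replicate 3 was the highest KO library for 5 genes, Ccl5, Ccl7, Ccl12, Cxcl16 and Cxcr2. Replicate 5 was also lowest in both genotypes for the summed astrocyte (19.3 TPM in KO, 21.9 in WT), mural and fibroblast (4.85, 5.67) and neuronal markers (12.7, 14.4). WT replicate 4 was the highest WT library for these 3 lists (152, 40.7 and 30.6 TPM), while KO replicate 4 was at 21.5, 9.98 and 16.2 TPM. A link of these markers to the high values was not tested.

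**Figure D4:**
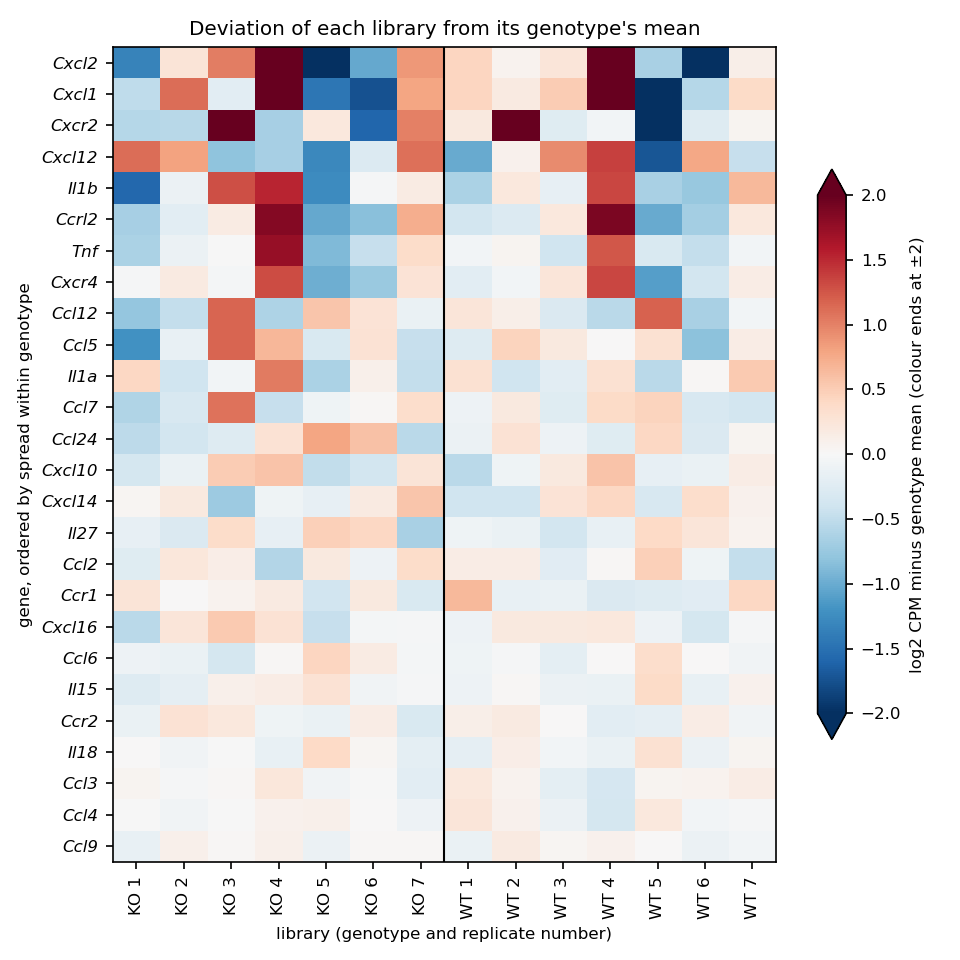
Log2 CPM of the 26 tested genes minus the mean of their genotype, for the 14 libraries, with genes ordered from the largest to the smallest spread and colours ending at 2 in either direction. The columns of KO replicate 4 and WT replicate 4 are red for Cxcl2, Cxcl1, Il1b, Ccrl2, Tnf and Cxcr4, the columns numbered 5 are blue for the same genes, and the bottom rows, Ccl3, Ccl4 and Ccl9, are nearly white.

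Neighbouring genes did not always share this pattern. Ccl3 and Ccl4 moved together within genotypes (r = 0.78, permutation p adjusted over 16 relations = 0.0178), with r = 0.56 without KO replicate 7 and WT replicate 4, and their rho of 0.61 did not pass (adjusted p = 0.0838). Ccl6 and Ccl9, side by side in the same cluster, did not (r = -0.17, adjusted p = 0.656). For Ccl2 and Ccl7 r was 0.61 (permutation p adjusted = 0.0806), and for Il1a and Il1b it was 0.41 (adjusted 0.384). Of the 16 relations examined, 9 of neighbouring genes and 7 of a gene with a marker list, 5 had an adjusted p under 0.05 by r and 2 by rho, those of Cxcl1 with Cxcl2 and of Cxcl12 with the mural and fibroblast markers. With log2(TPM + 1) in place of log2 CPM, rho also passed for Cxcl14 with the astrocyte markers (0.76, permutation p adjusted = 0.0229) and for Cxcr2 with the neutrophil markers (0.70, adjusted 0.0461).

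The other genes of the same pathways did not pass the test either. Of 36 cytokine receptors and regulators, 24 were tested, 13 higher and 11 lower in KO, and 1, the inhibitory receptor Sigirr, had an unadjusted p under 0.05 (log2 fold change -0.58, edgeR adjusted p = 0.943). Of 12 inflammasome and processing genes, 11 were tested, 9 higher and 2 lower. The largest estimates among them were those of Nlrp1b, 0.17 (SE 0.083), and Nlrp3, 0.15 (SE 0.085), both with an edgeR adjusted p of 0.943. Gsdmd, whose product forms the pore through which IL-1 beta leaves the cell, had an estimate of 0.10 (SE 0.066, edgeR adjusted p = 0.943). Its mean was 84.3 CPM in KO (SD 8.81, 7 libraries) against 78.9 CPM in WT (SD 6.44, 7 libraries). Of the 19 other chemokine ligands 17 were matched and 5 tested, 1 higher and 4 lower, led in level by Pf4 at a mean of 81.7 TPM. Cxcl5, a ligand of Cxcr2, had an estimate of -1.46 (SE 0.73, edgeR adjusted p = 0.943), farther from 0 than that of any of the 26 genes above. Its mean was 0.336 CPM in KO (SD 0.335, 7 libraries) and 0.934 CPM in WT (SD 0.889, 7 libraries). Of 20 other chemokine receptors 12 were tested, 5 higher and 7 lower. The scavenging receptor Ackr3 had an estimate of -0.95 (SE 0.55, edgeR adjusted p = 0.943) at a mean of 13.9 reads. Cx3cr1, the receptor of fractalkine, had a mean of 659 TPM and Cmklr1, a receptor of chemerin, a mean of 70.6 TPM. In these 4 lists 0 genes had an adjusted p under 0.05.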

How the data were processed

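Libraries of poly(A) RNA from 14 cultures were sequenced by the authors as paired-end reads of 150 bases. The submitters' processing notes name Trimmomatic 0.36, STAR 2.5.2b, featureCounts from Subread 1.5.2 and the build GRCm38. The annotation release and the strand setting were not given in the sources used here, which bears on genes that overlap others. The authors deposited raw counts per Ensembl gene, whole numbers with 1 column per library, without normalization. Columns were assigned by the library number in the labels and 0 were left out. Names, positions and exon lengths came from GENCODE vM21, which matched 49056 of 49315 genes.

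The main test was edgeR's quasi-likelihood test (version 4.0.16, R 4.3.3) with TMM scaling and genotype as the only term. Its filterByExpr step kept genes with at least 15 counts in total that reached, in at least 7 libraries, the CPM that 10 counts make in a library of median size. The test was two-sided with Benjamini-Hochberg adjustment over all 15700 tested genes and a threshold of 0.05. CPM used TMM-scaled library sizes, log2 CPM a prior count of 1, and TPM the summed exon length of each gene. Library totals of 38875344 to 48070236 set the counting precision, and p-values measure the spread between pools. On simulated data of 7 and 7 libraries with 15700 genes, edgeR recovered 81 of 100 genes changed by 1 and 69 of 100 changed by 0.5 on the log2 scale, and 7 of 157 calls were false. DESeq2 1.42.0 was an alternative, besides other scalings, no filter, the replicate number as a block, the astrocyte markers as a covariate and leaving out each library. Correlations used log2 CPM minus the genotype mean and 100000 permutations within genotype, and list levels were compared over all 3432 splits into 7 and 7. A marker list entered the correlations as the mean of its tested genes, which for the lymphocyte list was Cd4 alone.

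The members, the marker and pathway lists, the relations and the alternatives were chosen with earlier results of these data known. Full values are given for the 12 members with the highest mean TPM, the 6 with the smallest unadjusted p, the 5 with the largest spread within genotype, and Ccl20, Il1b, Ccl5, Tnf and Il6, and for each other list for up to 3 genes. The symbol Ccl19 sits on more than 1 row and was left out. The study modelled a batch that the labels do not give, and it was not used here. Some items are not reported here. Start-site sequences came from RefSeq on GRCm38.p6.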

Additional observations from a re-analysis of the deposited data

Results flagged for a closer look

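In 52 groups of 7 libraries, 26 tested genes in each genotype, the gap between the most extreme library and its nearest neighbour was set against the range of the group on the log2 scale. In 4 groups it exceeded the critical value of Dixon's test for 7 values. Chance gives about 1 such group in 20. Il18 was highest in KO replicate 5 (gap 0.6148 of the range), at 16.4 CPM against 12.7 in the next KO library. Tnf was highest in WT replicate 4 (0.6987), at 51.6 CPM against 22.5 in the next. For Ccl6 WT replicate 5 was highest (0.6191), at 356 CPM against 282. Ccrl2 was highest in WT replicate 4 (0.5775), at 55.2 CPM against 17.3. For each of these 4 genes the library with the same number was also the highest of the other genotype.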

How the results depend on the processing

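The count of 0 members with an adjusted p under 0.05 held in every alternative run, and other scalings or no filter turned no log2 fold change. DESeq2 called 11 genes of the table and DESeq2 with the replicate block 27, against 3 with edgeR. Unadjusted p under 0.05 were reached by 2 members in DESeq2 with the replicate block (Il1b and Ccl9, against 1.65% of all genes tested), by 1 in edgeR with the replicate block (Ccl9, against 5.87%) and by 0 to 2 when 1 library was left out (against 2.38 to 6.31%). Same-numbered KO and WT libraries do not come from the same animals. Over all genes their deviations correlated above 0.1 in 3 of 7 pairs (-0.20 to 0.74), and 3 of 14 libraries correlated best with their own number. The main fit did not take the numbers as pairs. For 26.3% of all tested genes the same number was highest in both genotypes, and what same-numbered cultures shared was not tested. The replicate block turned Cxcl2 to -0.079 in DESeq2 and -0.045 in edgeR. In edgeR it lowered the SE of Ccrl2 from 0.51 to 0.084 and that of Tnf from 0.39 to 0.15, with log2 fold changes of 0.041 and 0.16. The astrocyte covariate turned Il18 to -0.065, Il27 to -0.15, Ccl6 to -0.010, Ccl12 to -0.058, Ccl24 to -0.090, Cxcl12 to 0.22 and Cxcr4 to 0.30. Among the genes that kept their sign, it moved Ccrl2 from 0.064 to 0.53 and Cxcl2 from 0.28 to 0.54. It moved Ccl5 from 0.54 to 0.34 and Ccl4 from 0.096 to 0.010. The cause of these moves was not tested. Without both libraries numbered 4, Il1a was -0.10. Leaving out 1 library gave ranges that crossed 0 for Il1a (-0.15 to 0.19), Il18 (-0.051 to 0.082), Il27 (-0.041 to 0.13), Tnf (-0.20 to 0.61), Ccl12 (-0.0039 to 0.56), Cxcl2 (-0.58 to 0.88), Cxcl14 (-0.041 to 0.16), Ccrl2 (-0.46 to 0.63) and Cxcr4 (-0.41 to 0.24), and 15 to 20 members were then higher in KO. At a mean of at least 5 CPM 15 members counted as expressed, and at 0.5 CPM 25. With log2(TPM + 1) the r of the 16 relations kept its direction and its side of the threshold. The rho passed for 2 more, named in the report, and changed sign for Ccl6 with Ccl9 (-0.055 to 0.042) and for Ccl24 with the monocyte and border macrophage markers (-0.18 to 0.042). The 5 members with a mean under 10 reads entered only the tests without the filter and with DESeq2, where 0 of them had an unadjusted p under 0.05.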

Other observations

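The remaining marker lists were read from the same fit. Of the 12 microglial markers 11 were higher in KO and 1 lower, and of the 12 neuronal markers 2 were higher and 10 lower. Of 11 tested markers of the oligodendrocyte lineage 3 were higher and 8 lower, of 8 endothelial markers 5 were higher and 3 lower, and the 1 lymphocyte marker tested was higher. With edgeR 0 of the genes in these 5 lists had an adjusted p under 0.05 and 0 had an unadjusted p under 0.05.

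After it was seen that the same numbers stood out in both genotypes, the KO and WT levels of same-numbered cultures were correlated over the 7 numbers for each of the 26 tested members, on log2 CPM. The correlation r was above 0 for 19 of them, with a median of 0.51, against 68.9% of all 15700 tested genes and a median of 0.24. These values restate on the same libraries what had been seen, so they are given without a test. The highest were those of Ccrl2 (r = 0.97), Cxcr4 (r = 0.95), Ccl6 (r = 0.94), Tnf (r = 0.87) and Cxcl10 (r = 0.86), and 3.23% of all tested genes had an r at least as high as Cxcl10. Without the 2 numbers farthest from the median, r was 0.96 for Ccrl2, 0.71 for Cxcr4, 0.70 for Ccl6 and 0.69 for Cxcl10. For Tnf it was 0.17 without numbers 4 and 5, so that its r rests on those cultures. For Ccl3 it was -0.70, and 0.01 without numbers 4 and 7. The labels do not say whether cultures with the same number were prepared on the same day.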
